A study of Homo sapiens with 12 samples.

Results

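The genes described here are 9 well-known targets of the transcription factor NRF2: HMOX1, NQO1, GCLM, GCLC, TXNRD1, SRXN1, OSGIN1, FTL, and FTH1. They were chosen by symbol from the 60708 genes of the RNA-seq count tables, and all 9 were found in both tables and had enough counts to be tested. The cells were HCT116, a single established human colorectal carcinoma line, labelled WT and grown in RPMI1640 with serum. One group was treated for 24 h with oligomycin A (OA), which blocks ATP synthase in mitochondria, and was compared with its own DMSO-treated group. Another was treated for 24 h with tunicamycin (TN), an inhibitor of protein N-glycosylation that loads the endoplasmic reticulum with unfolded proteins, and was compared with a separate DMSO-treated group. Each of the 4 groups had 3 libraries, which the labels call biological replicates. The labels give 5 µg/mL for both stressors, whereas the methods of the study give a higher dose for OA. In such bulk libraries, more RNA per cell and a different mix of surviving cells cannot be told apart.

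NRF2 is held in the cytoplasm by KEAP1, which hands it to a CUL3 ubiquitin ligase for degradation. Oxidants and electrophiles modify KEAP1, and the autophagy receptor SQSTM1 can displace NRF2 from it, so that NRF2 reaches the nucleus and pairs with a small MAF protein on antioxidant response elements. The targets fall into roles. HMOX1 breaks down haem, and the heavy and light ferritin chains FTH1 and FTL store the iron. GCLC and GCLM are the catalytic and modifier subunits of the enzyme that starts glutathione synthesis. TXNRD1 reduces thioredoxin and SRXN1 repairs oxidized peroxiredoxins. NQO1 reduces quinones, and OSGIN1 is an oxidative stress-induced growth inhibitor. Ferritin is also controlled at translation by iron, which RNA counts do not show.

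The core letters of the antioxidant response element, TGACNNNGC, were searched on both strands of the RefSeq promoters (GRCh38.p14), from 250 bases before to 50 bases after each start site, because the members share this element by reputation. The table held 8 promoters for 7 of the 9 members, including a pair of start sites for TXNRD1, and no entry matched HMOX1 or FTH1. The core was found in 3 of the 8, those of GCLM and both of TXNRD1, against 13.35% of all 35116 promoters. A variant with G in place of C, TGAGNNNGC, which occurs in MAF recognition elements, was found in 4 of the 8, against 18.29% of all promoters. The windows of GCLC, SRXN1, and FTL held neither, and bases outside the windows were not searched for any member. The stretches below carry the matches that lie fully upstream of a start site. They are read on the strand of the gene, and the capitals mark the match, which in 4 of the 6 lies on the opposite strand. The stretches lie at chr1:93909446-93909474 for GCLM, chr12:104215670-104215698, chr12:104286920-104286948, and chr12:104286824-104286852 for TXNRD1, chr16:69726661-69726689 for NQO1, and chr16:83953131-83953159 for OSGIN1.
GCLM core, 34 to 26 bases upstream: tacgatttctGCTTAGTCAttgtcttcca
TXNRD1 first start site core, 99 to 91 bases upstream: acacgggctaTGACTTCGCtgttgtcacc
TXNRD1 second start site core, 102 to 94 bases upstream: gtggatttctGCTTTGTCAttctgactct
TXNRD1 second start site variant, 198 to 190 bases upstream: ggggcggctaTGAGCAGGCagaggatgtg
NQO1 variant, 119 to 111 bases upstream: tcctggagctGCAGCCTCAgcatcctccg
OSGIN1 variant, 99 to 91 bases upstream: acgggcccctGCTGACTCAcgcttatgaa

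The OSGIN1 promoter is shown in full up to its start site (chr16:83952990-83953239, + strand), since OSGIN1 rose with both stressors and had the pattern closest to that of HMOX1. The capitals mark the same match, which is a description of the letters and not of binding.
OSGIN1 promoter: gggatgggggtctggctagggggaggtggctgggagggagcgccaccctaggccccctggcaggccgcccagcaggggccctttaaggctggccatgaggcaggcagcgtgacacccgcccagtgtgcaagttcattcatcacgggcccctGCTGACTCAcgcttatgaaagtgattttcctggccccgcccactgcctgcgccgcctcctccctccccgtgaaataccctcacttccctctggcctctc

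The library totals ranged from 9884124 to 24983573 counts, and the 3 libraries of a group differed from each other by more than sampling noise. The OA replicate 2 and TN replicate 1 libraries stood apart from the other libraries of their groups. RN7SL1, the RNA of the signal recognition particle, took 17.9% and 13.3% of their counts, against 6.02% to 12.5% in the other 10 libraries. In OA replicate 2, 123 genes lay at least 4-fold above both other OA libraries, and in TN replicate 1, 57 genes did so. OA replicate 1 had 68 such genes and OA replicate 3 had 20. Levels in OA replicate 2 and TN replicate 1 also leaned towards GC-rich transcripts. The lean was 0.40 and 0.55 on the log2 scale per 10 points of GC content. OA replicate 1 leaned the other way by -0.42. The DMSO libraries with the same numbers as OA replicate 2 and TN replicate 1 leaned by 0.30 and 0.27. Epithelial markers summed to between 4430 and 6750 CPM of the plain library total in every library, and the keratins KRT8, KRT18, and KRT19 had at least 1630, 1140, and 1240 CPM. VIL1, a marker of enterocytes, was at 0 to 3 counts. Among the epithelial markers, CDH1 rose by 1.81 with OA and 1.69 with TN on the log2 scale (adjusted p = 0.0271 and 0.00677 in edgeR). CDX2 had -0.76 with OA and -0.42 with TN (adjusted p = 0.164 and 0.507 in edgeR). The 7 markers of other cell types summed to 1.16 to 2.50 CPM in the DMSO libraries of OA, 3.74 to 9.11 in OA, 1.82 to 3.82 in those of TN, and 1.45 to 3.26 in TN. Nearly all of this was COL1A1, a collagen gene with 15 to 124 counts, while PTPRC, CD3E, and DCN were at 0 or 1 count, and its part in the results was not tested.

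In DMSO-treated cells, the members spanned a wide range of levels. Per kilobase of merged exons, the order of levels with the OA controls was FTL at 2128 ± 356 CPM per kilobase (here and in all values that follow, CPM are counts scaled to the TMM-adjusted library size), NQO1 at 408 ± 89.2, FTH1 at 187 ± 20.4, TXNRD1 at 97.9 ± 2.83, HMOX1 at 14.1 ± 2.34, GCLC at 9.93 ± 2.01, GCLM at 4.10 ± 1.37, OSGIN1 at 2.82 ± 0.43, and SRXN1 at 0.23 ± 0.11 (SD, n = 3 each). HMOX1 and GCLC overlapped in these libraries, and so did GCLM and OSGIN1, whereas no other neighbours in the order did. The TN controls gave the same order, from FTL at 1670 ± 369 to SRXN1 at 0.42 ± 0.14 CPM per kilobase (SD, n = 3 each), and there no neighbours overlapped. For some members the merged exons are longer than the longest transcript, with 8618 against 3785 bases for GCLC and 5558 against 2391 for OSGIN1. The order of neighbours close in level, such as HMOX1 and GCLC or GCLM and OSGIN1, may therefore depend on the length used. The light ferritin chain lay above the heavy chain in every library, and SRXN1 rested on 5 to 23 counts in each DMSO library. Reads from exon bases that SRXN1 shares with another gene may be missing, as given below, so its level and place may be understated. Reads of FTH1 on bases shared with BEST1, and reads of either ferritin gene shared with pseudogenes, may also be miscounted, as given below. Whether this affects the place of FTH1 below FTL was not tested.

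**Figure D1:**
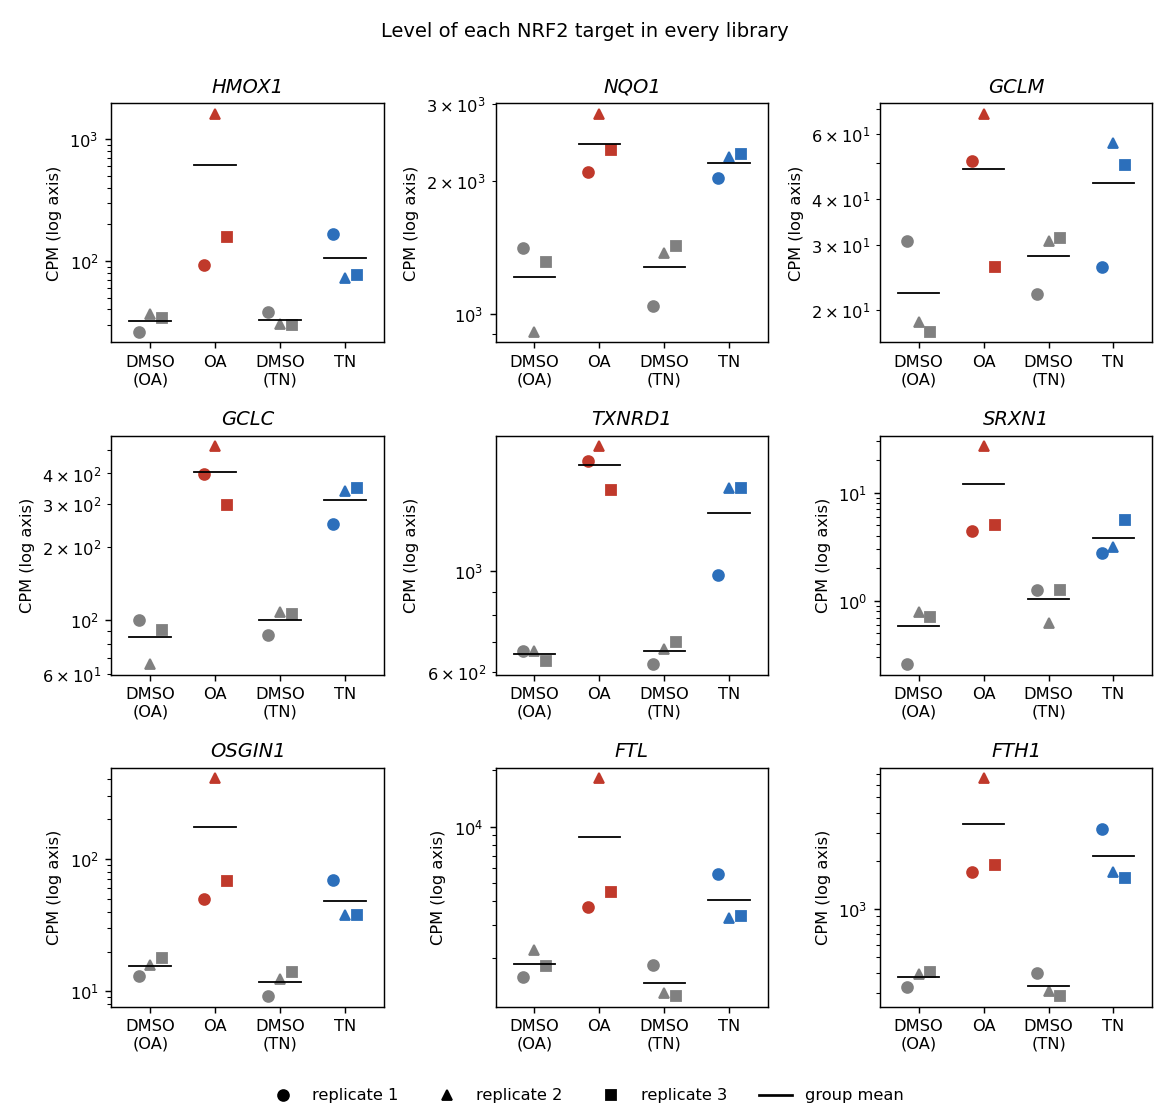
Level of each of the 9 NRF2 targets in every library, in CPM on a log axis that differs between panels, for OA, TN, and the DMSO group of each. Marks give replicates 1, 2, and 3 and lines give group means. OA replicate 2 (red triangle) sits far above the other OA libraries for HMOX1, SRXN1, OSGIN1, FTL, and FTH1, and close to them for GCLC, TXNRD1, and NQO1.

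All 9 NRF2 targets had a log2 fold change above 0 with either stressor, against 48.8% of all tested genes with OA and 48.1% with TN. With OA, 5 of the 9 passed an adjusted p of 0.05 by the quasi-likelihood method of edgeR, after Benjamini-Hochberg correction across all genes (GCLC, TXNRD1, SRXN1, OSGIN1, and FTH1), against 2.76% of the 14681 genes tested that rose. Every OA library lay above every DMSO library for 8 of the 9, all but GCLM, against 16.3% of all genes. The median log2 fold change of the 9 was 2.24, and that of all tested genes was -0.02. With TN, 6 of the 9 passed (HMOX1, GCLC, TXNRD1, OSGIN1, FTL, and FTH1), against 3.65% of the 14432 genes tested that rose, and the groups did not overlap for 8, again all but GCLM, against 15.9% of all genes. The median was 1.63, against -0.03 for all tested genes.

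When the replicate number was added as a block, all 9 passed with both stressors in edgeR, where adjusted p spanned 0.000594 to 0.0161 with OA and 0.000123 to 0.0367 with TN. The share of all genes that rose went up to 11.7% and 11.8%. Leaving out 1 library moved the number of calls among the 9 and among all genes together. Without OA replicate 1 or 2, 8 and 7 of the 9 passed, where 5.03% and 3.41% of all genes rose. Without OA replicate 3, 1 of the 9 did, where 0.375% rose. Without DMSO replicate 1, 2, or 3 of OA, 0 of the 9 passed in edgeR, where 0.0341%, 0.0204%, and 0.0204% of all genes rose. In these fits, 8 or 9 of the 9 had an unadjusted p under 0.05. Of all 14681 genes, 2238, 2821, and 2105 did in edgeR. For TN, 4 of the 9 passed without DMSO replicate 1, where 1.78% of all genes rose, and 1 (FTH1) without DMSO replicate 2 or 3, where 0.686% and 0.554% rose. Without TN replicate 2 or 3, 3 of the 9 passed (1.25% and 1.41% of all genes), whereas without TN replicate 1 all 9 passed (7.62%).

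**Figure D2:**
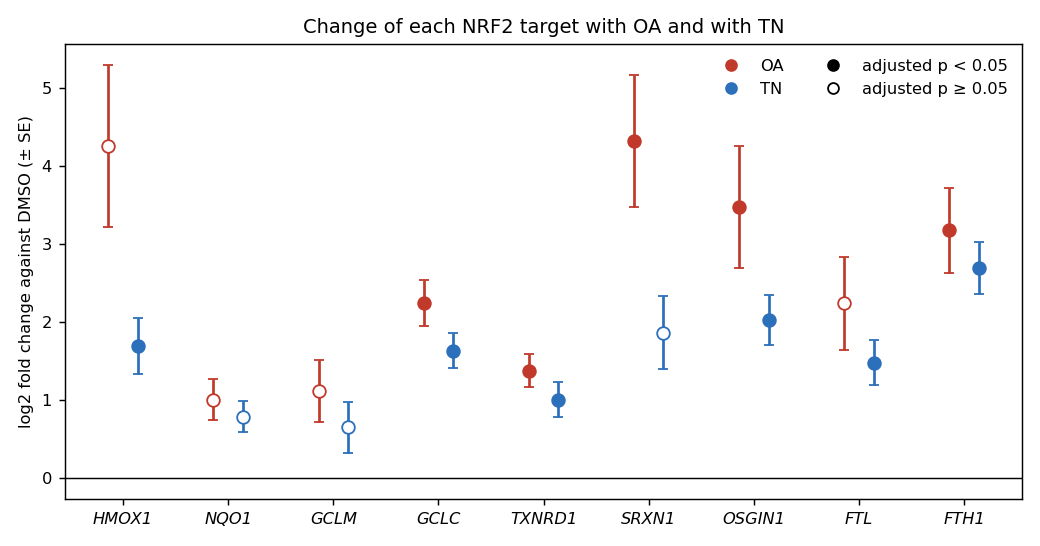
Log2 fold change of each NRF2 target against DMSO, with its standard error (SE), for OA (red) and TN (blue), 3 against 3 libraries each. Filled circles pass an adjusted p of 0.05 with edgeR. All 18 values lie above 0, from 0.65 for GCLM with TN to 4.32 for SRXN1 with OA.

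HMOX1, the inducible haem oxygenase (chromosome 22, 35380361 to 35394214, hg38), had the most uneven response. Its level was 26.3, 36.6, and 34.4 CPM in the DMSO replicates 1, 2, and 3 of OA and 92.1, 1610, and 159 CPM in the OA replicates. OA replicate 2 thus held 16135 HMOX1 counts, while the other OA libraries held 1249 and 1534. The log2 fold change was 4.26 (SE 1.04), and it did not pass the test without a block (adjusted p = 0.0589 in edgeR). With the replicate block it was 3.06 (adjusted p = 0.00649 in edgeR), and without OA replicate 2 it was 1.94 (adjusted p = 0.0142 in edgeR). With TN, the level went from 37.8, 30.4, and 29.8 CPM to 168, 72.7, and 77.2 CPM, and TN replicate 1 was the high library. This rise of 1.70 on the log2 scale (SE 0.36) passed the test (adjusted p = 0.0352 in edgeR). The other haem oxygenase, HMOX2, had log2 fold changes of -0.10 with OA and 0.04 with TN, and neither passed.

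FTH1, the heavy ferritin chain (chromosome 11, 61959718 to 61967634), rose with both stressors. The DMSO replicates of OA held 328, 391, and 405 CPM and the OA replicates 1719, 6558, and 1875 CPM. Even the lowest OA library was 4.24-fold above the highest DMSO library. The log2 fold change was 3.17 (SE 0.54, adjusted p = 0.0270 in edgeR), and it was 2.26 without OA replicate 2. With TN, FTH1 went from 401, 308, and 287 CPM to 3182, 1709, and 1562 CPM, a rise of 2.69 on the log2 scale (SE 0.33, adjusted p = 0.00662 in edgeR). It was the one member that kept an adjusted p under 0.05 in all 6 fits that left out 1 library of the TN comparison.

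FTL, the light ferritin chain (chromosome 19, 48965309 to 48966879), had the highest level per kilobase of the 9 in both DMSO groups. The DMSO replicates of OA held 1574, 2188, and 1800 CPM and the OA replicates 3716, 18110, and 4459 CPM, so that OA replicate 2 was again the high library. The log2 fold change of 2.24 (SE 0.59) did not pass the test without a block (adjusted p = 0.0710 in edgeR). It was 1.85 with the replicate block (adjusted p = 0.00450 in edgeR) and 1.13 without OA replicate 2 (adjusted p = 0.0280 in edgeR). With TN, FTL rose from 1825, 1290, and 1248 CPM to 5572, 3254, and 3321 CPM, a log2 fold change of 1.48 (SE 0.29, adjusted p = 0.0266 in edgeR).

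The balance of the chains was shifted towards the heavy chain in every treated library. The ratio of FTH1 to FTL counts was 0.21, 0.18, and 0.23 in the DMSO replicates of OA and 0.46, 0.36, and 0.42 in the OA replicates, 2.03-fold higher on average. For TN, it went from 0.22, 0.24, and 0.23 to 0.57, 0.53, and 0.47, 2.27-fold higher. The groups did not overlap in either comparison (two-sided exact permutation test, p = 0.1 each, the smallest p that 3 against 3 libraries allow). A ratio of counts within a library does not depend on how libraries are scaled. FTL has 56.0% GC in its longest transcript and FTH1 49.96%, and with GC offsets the log2 fold changes were 2.98 for FTH1 and 1.98 for FTL with OA and 2.65 and 1.39 with TN.

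Both ferritin genes have processed pseudogenes. The 25 FTH1 pseudogenes took 0.30% to 0.59% of the counts of their family in the OA libraries and their controls, and the 16 FTL pseudogenes 0.13% to 0.21%. Reads shared with these copies may be missing from either gene, which these shares do not measure. In the Gencode annotation, 63.22% of the exon bases of FTH1 overlap BEST1, a chloride channel gene on the opposite strand. BEST1 had 14 to 34 counts in the DMSO libraries and 116 to 247 in the treated ones, and rose by 3.72 with OA and 3.65 with TN on the log2 scale (adjusted p = 0.0157 and 0.00635 in edgeR). Which strand was counted is not given in the sources used here, so reads of FTH1 and BEST1 on the shared bases may not be told apart, although FTH1 had at least 3873 counts in every library.

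GCLC, the catalytic subunit for glutathione synthesis (chromosome 6, 53497341 to 53616970), rose in every treated library. Its level was 99.7, 66.2, and 90.7 CPM in the DMSO replicates of OA and 398, 517, and 298 CPM in the OA replicates. Its treated libraries spanned 1.74-fold, compared with 17.5-fold for HMOX1. It rose by 2.24 on the log2 scale (SE 0.29, adjusted p = 0.0157 in edgeR). With TN, GCLC went from 86.6, 108, and 106 CPM to 248, 338, and 348 CPM, a rise of 1.63 on the log2 scale (SE 0.22, adjusted p = 0.00814 in edgeR), and here TN replicate 1 was the lowest treated library.

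GCLM, the modifier subunit (chromosome 1, 93885199 to 93909456), had the smallest log2 fold change with TN and was the one member whose groups overlapped. The DMSO replicates of OA held 30.8, 18.5, and 17.4 CPM and the OA replicates 50.8, 67.9, and 26.1 CPM. OA replicate 3 lay below DMSO replicate 1. The log2 fold change of 1.12 (SE 0.40) did not pass without a block (adjusted p = 0.142 in edgeR), whereas 1.06 with the replicate block did (adjusted p = 0.0161 in edgeR). With TN, the values were 22.0, 30.7, and 31.4 CPM against 26.1, 56.5, and 49.5 CPM, with TN replicate 1 inside the range of the DMSO libraries. This log2 fold change of 0.65 (SE 0.32) did not pass (adjusted p = 0.268 in edgeR), and 0.60 with the block did (adjusted p = 0.0367 in edgeR).

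Within each library, the balance of the subunits was shifted towards the catalytic one. The ratio of GCLM to GCLC counts was 0.31, 0.28, and 0.19 in the DMSO replicates of OA and 0.13, 0.13, and 0.09 in the OA replicates, 0.45 times the DMSO ratio. For TN, it went from 0.25, 0.28, and 0.30 to 0.11, 0.17, and 0.14, 0.49 times the DMSO ratio. The groups did not overlap in either comparison (two-sided exact permutation test, p = 0.1 each, the smallest possible). GCLM has the lowest GC content of the 9, 37.3% in its longest transcript against 44.2% for GCLC. With GC offsets, the log2 fold changes were 1.86 for GCLM and 2.41 for GCLC with OA, and 0.89 and 1.75 with TN.

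**Figure D3:**
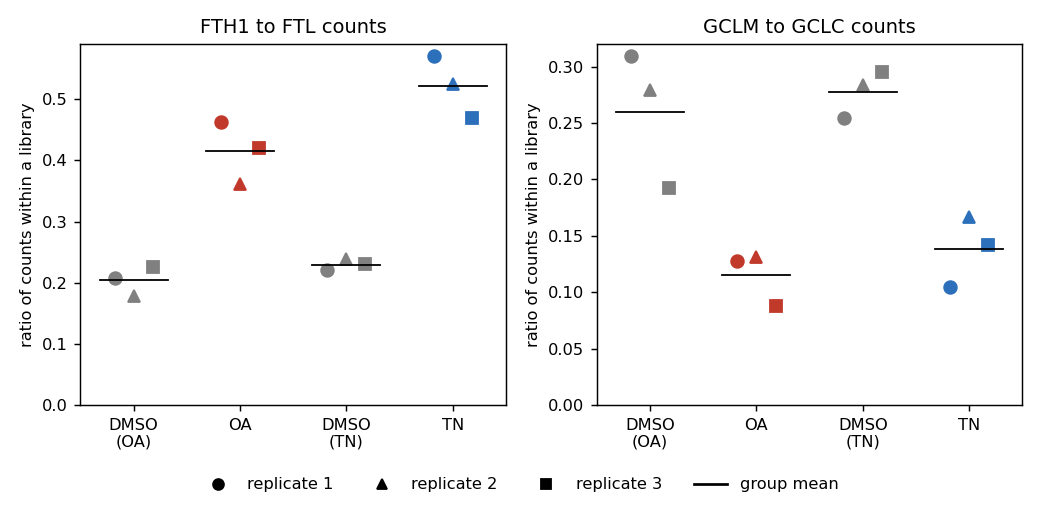
Ratio of FTH1 to FTL counts (left) and of GCLM to GCLC counts (right) within each library, by group. Marks give replicates 1, 2, and 3 and lines give group means. Treated libraries lie above all their DMSO libraries for FTH1 to FTL and below them for GCLM to GCLC, with both stressors.

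TXNRD1, cytosolic thioredoxin reductase (chromosome 12, 104215779 to 104350307), had the tightest replicates in the OA comparison. Its DMSO libraries of OA held 668.5, 667, and 635 CPM and the OA libraries 1739, 1875, and 1501 CPM. The rise of 1.38 on the log2 scale (SE 0.21) passed the test (adjusted p = 0.0219 in edgeR), and it was 1.31 without OA replicate 2. With TN, TXNRD1 went from 627, 675, and 699 CPM to 979.6, 1523, and 1521 CPM, a log2 fold change of 1.01 (SE 0.23, adjusted p = 0.0415 in edgeR). TN replicate 1 was again the lowest treated library.

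SRXN1, sulfiredoxin (chromosome 20, 646615 to 653200), had the lowest level and the largest log2 fold change with OA. Its counts were 5, 20, and 14 in the DMSO replicates of OA and 60, 268, and 48 in the OA replicates, or 0.26, 0.79, and 0.71 CPM against 4.43, 26.7, and 4.98 CPM. The log2 fold change of 4.32 (SE 0.84) passed the test (adjusted p = 0.0351 in edgeR), and it was 2.95 without OA replicate 2. With TN, its counts were 23, 11, and 17 against 26, 34, and 65, or 1.26, 0.63, and 1.26 CPM against 2.74, 3.14, and 5.58 CPM. This log2 fold change of 1.87 (SE 0.46) did not pass without a block (adjusted p = 0.0549 in edgeR) and passed with it (1.84, adjusted p = 0.0181 in edgeR). In the annotation, 90.66% of the exon bases of SRXN1 also belong to a longer protein-coding gene on the same strand, which had 0 counts in all 12 libraries, so the counts of SRXN1 may leave out reads from the shared bases.

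NQO1, the quinone reductase (chromosome 16, 69706996 to 69726668), was abundant before treatment and had the smallest log2 fold change with OA. The DMSO replicates of OA held 1412, 911.5, and 1313 CPM and the OA replicates 2101, 2841, and 2359 CPM. The groups did not overlap, but the log2 fold change of 1.01 (SE 0.26) did not pass without a block (adjusted p = 0.0665 in edgeR), whereas 1.02 with the block did (adjusted p = 0.0123 in edgeR). With TN, the values were 1040, 1373, and 1423 CPM against 2038, 2272, and 2303 CPM. Its log2 fold change was 0.79 (SE 0.20, adjusted p = 0.0576 in edgeR), and 0.80 with the block (adjusted p = 0.00214 in edgeR).

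OSGIN1 (chromosome 16, 83931311 to 83966332) went from 13.2, 15.9, and 17.9 CPM in the DMSO replicates of OA to 50.2, 405, and 68.03 CPM in the OA replicates. Like HMOX1, its level in OA replicate 2 was several times that in the other OA libraries. The rise of 3.48 on the log2 scale (SE 0.78) passed the test (adjusted p = 0.0471 in edgeR), and it was 1.91 without OA replicate 2 (adjusted p = 0.0106 in edgeR). With TN, OSGIN1 rose from 9.26, 12.3, and 13.95 CPM to 68.9, 37.4, and 38.0 CPM, a log2 fold change of 2.02 (SE 0.32, adjusted p = 0.0136 in edgeR).

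The size of the gap between libraries of a treated group differed among the 9 targets. In OA replicate 2, HMOX1 lay 3.73 above the mean of the other OA libraries on the log2 scale, OSGIN1 2.79, SRXN1 2.48, FTL 2.15, and FTH1 1.87. The same gap was 0.89 for GCLM, 0.59 for GCLC, 0.35 for NQO1, and 0.22 for TXNRD1. In TN replicate 1, HMOX1, FTH1, OSGIN1, and FTL lay 1.16, 0.96, 0.87, and 0.76 above the other TN libraries. The other 5 lay below them, from -0.17 for NQO1 to -1.01 for GCLM, with SRXN1 at -0.59. Hence SRXN1 went with the high genes in OA replicate 2 and with the low ones in TN replicate 1.

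These gaps moved with GC content. Across the 9 genes, the correlation of the gap with the GC content of the transcript was 0.84 in OA replicate 2 and 0.82 in TN replicate 1 (n = 9 genes that share their libraries, as a description). After GC offsets, it was 0.63 for OA and 0.09 for TN. HMOX1 still lay 3.29 above the other OA libraries after the offsets, OSGIN1 2.39, SRXN1 2.12, GCLM 1.96, FTL 1.72, and FTH1 1.58. The gaps of GCLC, NQO1, and TXNRD1 went up to 0.92, 0.69, and 0.49. In TN replicate 1, the gaps of HMOX1, OSGIN1, and FTL went down to 0.46, 0.08, and 0.14, and FTH1 was at 0.64. SRXN1 went further down, from -0.59 to -1.01, TXNRD1 was at -0.45 and GCLC at -0.22, and NQO1 and GCLM were at 0.08 and 0.36. With GC offsets, all 9 targets passed with both stressors in edgeR, where 8.51% of all genes rose with OA and 11.2% with TN.

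**Figure D4:**
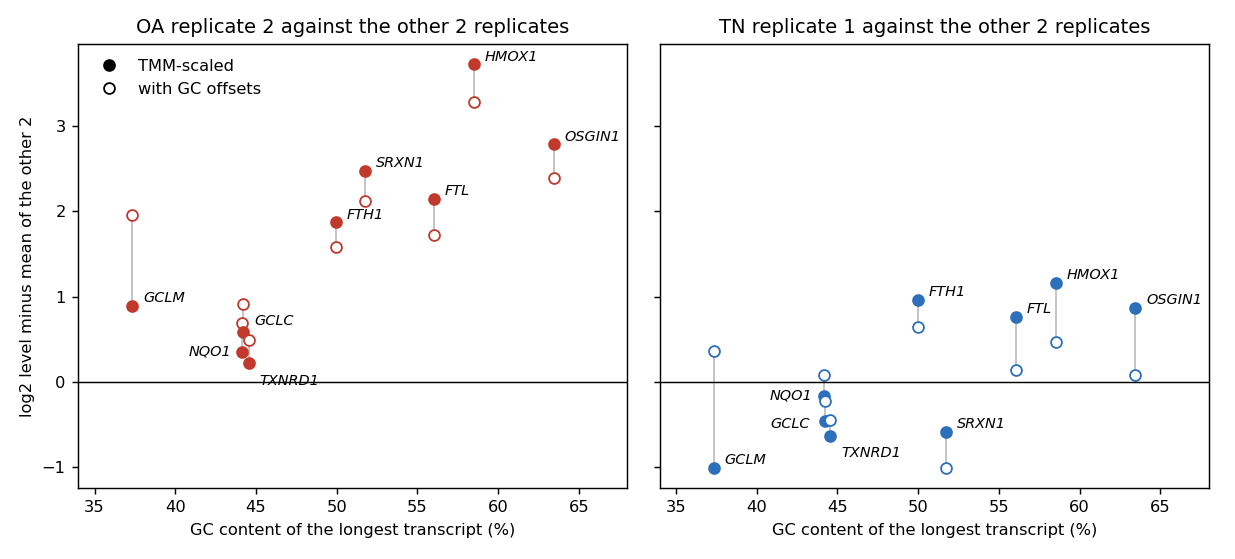
Gap of OA replicate 2 (left) and TN replicate 1 (right) to the mean of the other libraries of the group, in log2 units, against the GC content of the longest transcript in percent, for the 9 NRF2 targets. Filled circles are TMM-scaled levels and open circles have GC offsets per library. With the offsets, the TN gaps run from -1.01 for SRXN1 to 0.64 for FTH1, and HMOX1 stays 3.29 above in OA replicate 2.

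To test whether the stressors differed, the OA effect minus the TN effect was estimated in 1 model of all 12 libraries. The value was positive for all 9, with 2.44 for HMOX1 (SE 1.09, unadjusted p = 0.0448), 2.30 for SRXN1 (SE 0.97, unadjusted p = 0.0351), and 1.33 for OSGIN1 (SE 0.83, unadjusted p = 0.136) in edgeR. FTL, GCLC, FTH1, GCLM, TXNRD1, and NQO1 had values of 0.66, 0.51, 0.39, 0.36, 0.28, and 0.13. Over all 15429 genes tested, the median value was -0.06. No member passed, and among all 15429 genes tested 0.0% did in edgeR (adjusted p = 1 for every member), while 348 genes had an unadjusted p under 0.05 and DESeq2 called 2. With the replicate block, the difference was 1.41 for HMOX1 (unadjusted p = 0.103), 2.11 for SRXN1 (unadjusted p = 0.0113), and 0.76 for OSGIN1 (unadjusted p = 0.282) in edgeR, with an adjusted p of at least 0.921. Without OA replicate 2, the difference was 0.24 for HMOX1 and 1.05 for SRXN1, and it turned to -0.13 for OSGIN1, -0.35 for FTL, and -0.44 for FTH1. Without a filter on low counts, HMOX1 passed (adjusted p = 2.12e-05 in edgeR).

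Genes with the most similar pattern were sought among 8994 genes, by the root mean square difference over the 12 libraries of the log2 level minus the mean of the own DMSO group. The nearest to HMOX1 was OSGIN1 at 0.41, followed by SHISA4 at 0.54 and the metallothionein MT1X at 0.57. SRXN1 was nearest to CYP4F3 (0.54), BTG1 (0.65), and HMOX1 (0.66). The nearest to OSGIN1 were SHISA4 (0.33), SQSTM1 (0.36), and GTPBP2 (0.37), and to FTH1 the secreted stanniocalcin STC2 (0.23), LAMB3 (0.24), and SQSTM1 (0.26). FTL was closest to SNHG32 (0.13), KRT15 (0.15), and TRIM16 (0.19). Of the steadier members, GCLC was nearest to the glutaredoxin GLRX (0.23), LIPH (0.25), and MAP1B (0.26). TXNRD1 was nearest to PTPRM (0.20), ATF6 (0.21), and IRF2BP2 (0.21). Neighbours of NQO1 and GCLM are not given here.

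The rest of the pathway was described with 7 lists of 77 genes. Of the 72 that could be tested with OA, 8 rose and 0 fell in edgeR (2.76% and 1.72% of all genes did, 4.48% in all). In edgeR, 17 were higher and 7 lower at an unadjusted p under 0.05, a threshold that 3415 of all 14681 genes met. Of the 71 tested with TN, 10 rose and 0 fell in edgeR (3.65% and 3.34% of all genes did, 6.99% in all). Here 18 were higher and 5 lower at an unadjusted p under 0.05, which 3504 of all 14432 genes met. DESeq2 called 4 lower with OA and 2 with TN, where it called 5.31% and 7.15% of all genes lower. With the replicate block, 16 rose and 8 fell with OA, where 11.7% and 15.0% of all genes did, and 16 rose and 7 fell with TN, where 11.8% and 15.3% did. The median log2 fold change of every list was below that of the 9 targets, from -0.41 for other antioxidant enzymes to 0.72 for quinone, carbonyl, and drug metabolism with OA.

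Among 13 regulators of NRF2, 4 rose with OA and 2 with TN. NFE2L2, which encodes NRF2 itself, was at 62.0, 33.2, and 44.4 CPM in the DMSO replicates of OA and at 80.3, 29.4, and 47.4 CPM in the OA replicates, a log2 fold change of 0.17 (adjusted p = 0.825 in edgeR). It was 0.18 with TN (adjusted p = 0.708 in edgeR). KEAP1 had 0.17 with OA and 0.00 with TN, and neither passed. SQSTM1 rose from 464, 594, and 493 CPM to 1980, 7630, and 2470 CPM with OA, so it shared the high OA replicate 2. Its log2 fold change was 2.96 with OA and 2.24 with TN (adjusted p = 0.0275 and 0.00610 in edgeR), and with OA it was 2.10 without OA replicate 2 (adjusted p = 0.00538 in edgeR). NFE2L1, a relative of NRF2 known for proteasome genes, rose by 1.76 and 1.54 (adjusted p = 0.0331 and 0.00901 in edgeR). The small MAF partners MAFF and MAFG rose by 2.36 and 1.22 with OA (adjusted p = 0.0465 and 0.0471 in edgeR), and MAFF was 1.55 without OA replicate 2 (adjusted p = 0.0342 in edgeR). With TN, their log2 fold changes of 1.10 and 0.85 did not pass, and MAFG passed with the block (0.88, adjusted p = 0.00709 in edgeR) and without TN replicate 1 (0.96, adjusted p = 0.0380 in edgeR).

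For glutathione and thioredoxin supply, 1 of 8 tested genes rose with each stressor, SLC7A11, the cystine transporter. It went from 47.8, 14, and 24.1 CPM to 194, 168, and 95.9 CPM with OA and from 26.2, 59.3, and 56.8 CPM to 128, 396, and 403 CPM with TN. The log2 fold changes were 2.41 and 2.71 (adjusted p = 0.0365 and 0.0248 in edgeR). MGST1, GSS, and TXN had -0.05, 0.43, and 0.10 with OA and -0.60, 0.51, and -0.28 with TN, and none of these passed, although MGST1 with TN did with the block (-0.62, adjusted p = 0.0250 in edgeR). For glutathione breakdown, CHAC1, which cleaves glutathione and is also known as a target of ATF4, was the 1 of 5 tested genes that rose, by 4.31 and 3.91 (adjusted p = 0.00437 and 0.00605 in edgeR). OPLAH had 1.48 and 1.36, GGCT -1.32 and -0.98, and CHAC2 -1.88 and -1.60, all without overlap of the groups. Of all genes, 16.3% with OA and 15.9% with TN were higher without overlap, and 15.5% and 16.8% were lower. Each of the named genes passed with the block (adjusted p from 0.00225 to 0.0141 in edgeR) and not without it. With the block, 11.7% and 11.8% of all genes rose and 15.0% and 15.3% fell. However, OPLAH with TN also passed without TN replicate 1 (0.87, adjusted p = 0.0205 in edgeR).

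Of 6 genes for NADPH supply, 0 rose with OA and 3 with TN, ME1 and IDH1 among them. The malic enzyme ME1 had 1.17 with OA and rose by 0.82 with TN, and the isocitrate dehydrogenase IDH1 had 0.75 and rose by 0.95 (adjusted p with TN of 0.0431 and 0.0389 in edgeR). With the block, ME1 and IDH1 also passed with OA (adjusted p of 0.0122 and 0.0160 in edgeR). TKT had 0.16 and 0.47 and did not pass.

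Among 13 tested genes of quinone, carbonyl, and drug metabolism, 1 rose with each stressor, the exporter ABCC3. It went from 9.96, 9.29, and 10.3 CPM to 59.8, 90.6, and 54.5 CPM with OA, a log2 fold change of 2.79, and had 2.33 with TN (adjusted p = 0.0107 and 0.00662 in edgeR). AKR1C3, AKR1B10, and EPHX1 had 1.65, 1.96, and 0.89 with OA and 1.32, 1.05, and 0.91 with TN, none of which passed. With the block, EPHX1 passed with both stressors, AKR1B10 with OA, and AKR1C3 with TN (adjusted p of 0.0219, 0.0174, 0.0381, and 0.0274 in edgeR). Without OA replicate 2, AKR1B10 with OA was 0.55 (adjusted p = 0.650 in edgeR), and without TN replicate 1, AKR1C3 with TN passed (1.40, adjusted p = 0.0474 in edgeR). AKR1C3 and AKR1B10 were at 0.42 to 2.60 CPM in DMSO-treated cells.

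Of the other genes for haem and iron handling, 1 of 14 tested rose with OA and 2 of 13 with TN. SLC48A1, which carries haem out of lysosomes, rose by 1.47 and 1.11 (adjusted p = 0.0400 and 0.0297 in edgeR). BLVRB, a biliverdin reductase that acts downstream of haem oxygenase, had 79.9, 118, and 91.0 CPM against 140, 527, and 182 CPM with OA. This log2 fold change of 1.55 did not pass (adjusted p = 0.108 in edgeR), whereas 1.32 with the block did (adjusted p = 0.00662 in edgeR). Without OA replicate 2 it was 0.73 (adjusted p = 0.126 in edgeR). BLVRB rose by 1.40 with TN (adjusted p = 0.0326 in edgeR). SLC11A2 and the iron exporter SLC40A1 had 0.24 and -1.15 with OA and 0.59 and -0.93 with TN and did not pass, although SLC11A2 with TN did with the block (0.57, adjusted p = 0.0301 in edgeR) and without TN replicate 1 (0.77, adjusted p = 0.0135 in edgeR).

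Of 13 antioxidant enzymes outside the NRF2 list, 2 were higher and 11 lower with OA, where 48.8% of all genes were higher, and 3 were higher and 10 lower with TN, where 48.1% were. None of the 13 passed in either direction in edgeR with all libraries and no block. SOD1, the cytosolic superoxide dismutase, was at 477, 510, and 480 CPM in the DMSO replicates of OA and at 279, 299, and 284 CPM in the OA replicates, and OA replicate 2 was not set apart. Its log2 fold changes were -0.77 and -0.70 (adjusted p = 0.0690 and 0.0960 in edgeR), and both passed with the block (adjusted p = 0.0128 and 0.00523 in edgeR). SOD1 also passed with OA without OA replicate 2 (-0.80, adjusted p = 0.0437 in edgeR) and, like PRDX3, with TN without TN replicate 1 (-0.82 and -0.56, adjusted p = 0.0252 and 0.0433 in edgeR). The mitochondrial enzymes PRDX3 and SOD2 had -1.14 and -0.85 with OA and -0.81 and -0.49 with TN. With the block, PRDX3 passed with both stressors and SOD2 with OA (adjusted p of 0.00433, 0.00947, and 0.0148 in edgeR). PRDX5 had 1.00 and 0.97 and passed with the block (adjusted p = 0.0129 and 0.00322 in edgeR). Its OA and DMSO libraries overlapped, and without OA replicate 2 its OA value was 0.52 (adjusted p = 0.255 in edgeR).

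**Figure D5:**
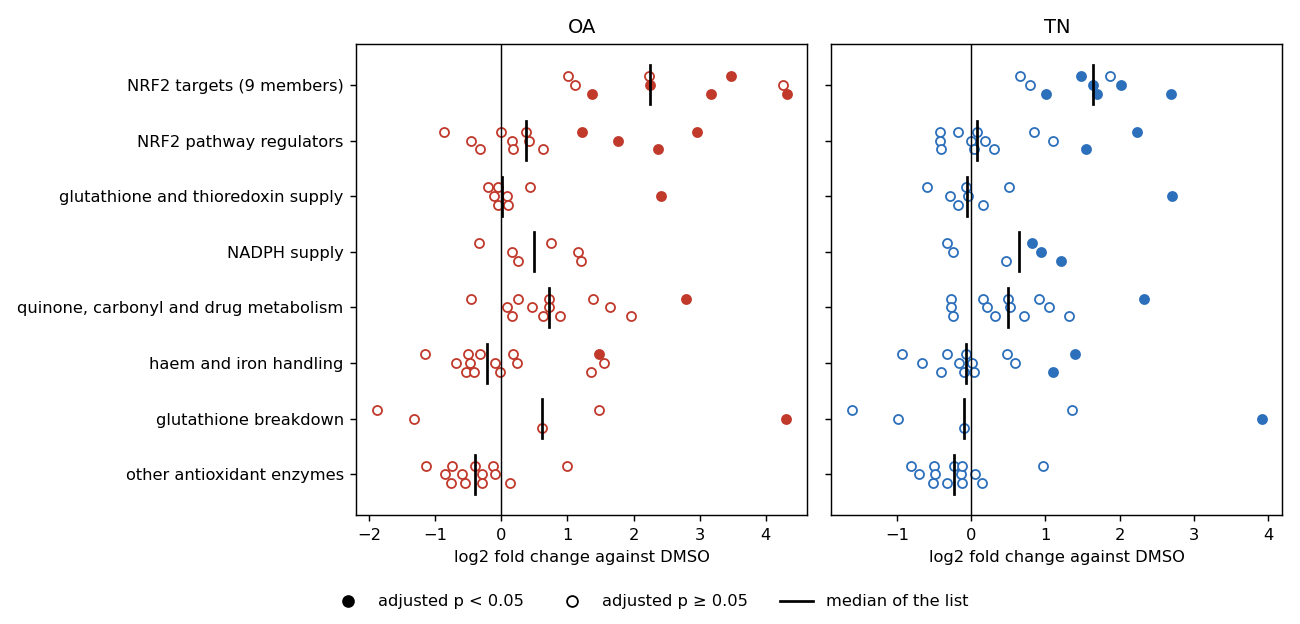
Log2 fold change against DMSO of each tested gene of the 9 NRF2 targets and of 7 other lists, for OA (left) and TN (right). Filled circles pass an adjusted p of 0.05 with edgeR and vertical bars are list medians. All 9 targets lie above 0, with medians of 2.24 and 1.63, while the other lists have medians between -0.41 and 0.72.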

How the data were processed

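RNA was sequenced from 12 libraries of HCT116 cells, 3 in each of 4 groups taken from the sample labels. The deposited tables hold raw counts per gene, which the authors obtained from STAR alignments to hg38 with an earlier Gencode release than that used here. Which strand was counted is not given in the sources used here. The labels name a stranded kit for total RNA, whereas the study calls the assay mRNA-seq. Further deposited tables hold the authors' own DESeq2 comparisons (fold changes, test statistics, and p-values) and were not used. The members, the lists, and the rules were chosen with earlier results of these data known.

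Counts were scaled by TMM, filtered with filterByExpr, and tested two-sided by quasi-likelihood F in edgeR 4.0.16 (R 4.3.3), separately for OA and TN, with Benjamini-Hochberg correction across all tested genes. Standard errors (SE) were obtained from the log2 fold change and F. CPM values use the TMM library sizes, except those of the cell type markers, which use the library totals, and levels per kilobase use the merged exons of Gencode 44. With 9884124 to 24983573 counts per library, the 3 replicates of a group may limit precision more than depth does. For SRXN1, which had the lowest counts of the 9, counting error may add to this. Neither was tested. Named genes were the 9 members, NFE2L2, KEAP1, up to 4 genes of each other list by lowest p, and the 3 nearest genes by pattern with a mean of at least 10 CPM. Other genes given values (HMOX2, BEST1, VIL1, CDH1, CDX2, PTPRC, CD3E, COL1A1, DCN, KRT8, KRT18, KRT19, and RN7SL1) were named as checks. The values of 1 gene that the rule names are not reported here.

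Alternatives were DESeq2 1.42.0, DESeq2 size factors, scaling to total counts or ACTB, no filter, a minimum of 10 counts per library, a replicate block, GC offsets, both together, 1 fit of all 12 libraries, and leaving out each library. The scripts were tested on simulated data. Same-numbered libraries deviated together from their group means, with correlations across genes of 0.15 to 0.74 over 13082 genes for OA and 0.53 to 0.72 over 13013 genes for TN, so the numbers, which the labels share between groups, were taken to pair the libraries. Libraries of unlike number reached up to 0.19 for OA, above the lowest same-number value, and 0.54 for TN.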

Additional observations from a re-analysis of the deposited data

How the results depend on the processing

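All 9 NRF2 targets stayed higher with OA and with TN under every alternative run in which they could be tested (SRXN1 with OA did not reach 10 counts in every library). With OA, 5 targets passed, against 8 with DESeq2, ACTB scaling, no filter, or 1 fit of all libraries, 9 with the replicate block, GC offsets, or both, 4 with total counts or at least 10 counts, and 0 to 8 when 1 library was left out. With TN, 6 passed, against 4 to 9 under the other settings and 1 to 9 when 1 library was left out. The TN median of 1.63 was 1.48 with total counts, 1.97 with ACTB, 1.52 with GC offsets, and 1.51 with the block and GC offsets, and 1.24 to 1.67 without 1 library. Scaling to total counts moved the median of all tested genes to -0.23 with OA and -0.18 with TN, and scaling to ACTB to 0.42 and 0.30.

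Over all genes, those that rose with OA ranged from 352 with total counts to 1894 with the block and GC offsets, against 405, and from 3 without DMSO replicate 2 to 738 without OA replicate 1. With TN, they ranged from 529 to 2630, against 527, and from 80 without DMSO replicate 3 to 1100 without TN replicate 1. With OA, 405 rose and 253 fell, against 352 and 396 with total counts and 1341 and 84 with ACTB, and with TN 527 and 482, against 529 and 875 and 1198 and 220. The difference between the stressors called 0 genes, against 22 higher (1 of them a member) and 3 lower without a filter, 2 higher with DESeq2, 1 lower with GC offsets, 1 higher and 5 lower with the block and GC offsets, and 4 lower without OA replicate 2.

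Among the other pathway genes, 8 rose with OA, against 14 with DESeq2, ACTB, or no filter, 16 with the block, 15 with GC offsets, 18 with both, 13 in 1 fit of all libraries, and 0 to 12 without 1 library. The 0 that fell with OA became 4 with DESeq2, 1 with total counts, 3 without a filter, 8 with the block, 6 with GC offsets, 9 with both, 2 in 1 fit, and 0 to 2 without 1 library. Of all genes, 1.72% fell with OA, against 5.31% with DESeq2, 2.7% with total counts, 2.40% without a filter, 15.0% with the block, 7.57% with GC offsets, 12.8% with both, and 5.11% in 1 fit, and 2.76% rose, against 7.81% with DESeq2, 9.13% with ACTB, 3.12% without a filter, 11.7% with the block, 8.51% with GC offsets, 12.9% with both, and 5.79% in 1 fit. With TN, 10 rose, against 16 with the block, 18 with GC offsets, 25 with both, and 3 to 15 without 1 library, and the 0 that fell became 2 with DESeq2, 1 with total counts, no filter, or 1 fit, 7 with the block or GC offsets, 12 with both, and 0 to 3 without 1 library. Of all genes, 3.34% fell with TN, against 7.15% with DESeq2, 6.06% with total counts, 3.22% without a filter, 15.3% with the block, 10.5% with GC offsets, 19.0% with both, and 4.06% in 1 fit, and 3.65% rose, against 11.8% with the block, 11.2% with GC offsets, and 18.2% with both. Also with TN, 7.83% of all genes rose with DESeq2, 8.3% with ACTB, 2.63% without a filter, and 4.67% in 1 fit.

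Small changes turned sign. With OA, MGST1 was 0.39 with ACTB, 0.26 with GC offsets, 0.19 with both, and -0.20 to 0.036 without 1 library. TXN was -0.14 and TKT -0.0757 with total counts, and TXN was -0.12 to 0.26 without 1 library. KEAP1 was -0.12 with total counts, -0.039 with GC offsets, -0.064 with both, and -0.26 to 0.40 without 1 library, and NFE2L2 was -0.28 to 0.48. With TN, TXN was 0.082 with ACTB, 0.018 with GC offsets, and 0.013 with both. KEAP1 with TN was -0.00591 with DESeq2, -0.00587 with its size factors, -0.19 with total counts, -0.0681 without a filter, -0.029 with at least 10 counts, -0.031 in 1 fit, -0.037 with the block, -0.15 with GC offsets or both, and -0.34 to 0.23 without 1 library. The difference between the stressors was -0.13 to 1.83 for OSGIN1, -0.35 to 1.07 for FTL, and -0.44 to 0.87 for FTH1 without 1 library, with the low end without OA replicate 2. The causes were not tested. The block changed no call of a member other than those given. SRXN1 had the lowest counts of the members, and whether depth limits its results was not tested.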
